A study of Sus scrofa with 6 samples.

Results

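LTA, LTB, LTBR and TNFSF13B are the genes of lymphotoxin alpha, lymphotoxin beta, the lymphotoxin beta receptor and the cytokine BAFF. These 4 genes were taken by name from the 4122 genes of the tables, and all 4 were listed in each of the 6 libraries. RNA was sequenced from lymph node, spleen and thymus of pigs with a biallelic RAG2 knockout and of their wild-type littermates, all aged 3 months. RAG2 is a part of the recombinase that assembles antigen receptor genes, and per the series title the edit removes a single amino acid. Each tissue and genotype gave 1 library, so no difference has a replicate check and no p-value is given. The labels give neither the number of animals behind a library nor whether the 3 tissues of a genotype came from the same animal.

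Lymphotoxin alpha and beta are cytokines of the tumour necrosis factor family. They join into a trimer on the surface of T cells, B cells, natural killer cells and innate lymphoid cells, while lymphotoxin alpha alone can also be secreted. Stromal, endothelial, epithelial and myeloid cells carry the receptor LTBR. In mice its signal is needed for lymph nodes to form, for the chemokines and adhesion molecules of lymphoid stroma, and for the medulla of the thymus. BAFF, made by myeloid and stromal cells, is a survival factor that B cells read through their own receptors.

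Levels are in FPKM, which scales fragments by transcript length and by the size of the library, and brackets after a level give the 95% exact Poisson interval of its fragment count on that scale. Log2 ratios set knockout over wild type after 1 FPKM was added to each level. A ratio of 1 or more in size, in either direction, was a call. Folds come from the fragment counts of both libraries, scaled by the authors' factors, and carry 95% Clopper-Pearson intervals. All intervals cover counting error only. The 3 tissues have separate tables, so levels compared across tissues rest on separate normalisations.

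The libraries held between 1922562 and 2541724 fragments assigned to listed genes. RAG2, the targeted gene, stood at 1072 FPKM in the knockout and 606 FPKM in the wild-type thymus. It had 5 and 0 fragments in the knockout and wild-type lymph node, and 0 and 4 in the spleens. A transcript level does not show a deleted amino acid, so these values check no label. The thymus libraries had the thymocyte genes RAG-1 (RAG1, 7134 FPKM in the knockout and 3435 FPKM in wild type) and PTCRA (611 and 302 FPKM in the same order). HMOX1, a gene of the spleen list, was listed at 0 in all libraries and could not serve as a check.

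LTB lies on chromosome 7 from 23704842 to 23707036 in Sscrofa11.1, and LTA on the same chromosome from 23696387 to 23698280. The gene of the related cytokine TNF is the only annotated gene that lies wholly in the 6561 bases between them. The annotated LTB gene overlaps LST1 over 1546 bases, 70.4% of its length. The strand setting of the counting is not given in the sources used here and LST1 was not analysed here, so fragments of this pair cannot be told apart. LTBR lies on chromosome 5 from 64271372 to 64278422 and TNFSF13B on chromosome 11 from 75599296 to 75633044, with no overlapping gene.

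LTB, the membrane-bound chain of the lymphotoxin trimer, was lower in the knockout in every tissue. In lymph node it stood at 112 FPKM (99.0 to 127) in the knockout and 968 FPKM (926 to 1009) in wild type. In spleen the values were 44.1 FPKM (36.9 to 53.5) in the knockout and 327 FPKM (303 to 351) in wild type. The counting intervals of the genotypes lay far apart in both organs. In thymus LTB stood at 20.6 FPKM (15.2 to 27.3) in the knockout and 286 FPKM (265 to 309) in wild type. By fragment counts LTB was 8.60-fold lower in the knockout lymph node (7.55 to 9.83), 7.32-fold lower in spleen (6.01 to 8.98) and 13.9-fold lower in thymus (10.4 to 19.0). The log2 ratios were -3.10, -2.86 and -3.73. LTB ranked 40th lowest of 2910 measured genes in lymph node, 36th of 2849 in spleen and 27th of 2908 in thymus.

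Every wild-type level of LTB was above every knockout level. The order ran from wild-type lymph node through wild-type spleen, wild-type thymus, knockout lymph node and knockout spleen to knockout thymus. Among neighbours in this order only wild-type spleen and thymus had overlapping intervals. The lymph node had the highest LTB level of the tissues in both genotypes.

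LTA, the chain that LTB anchors to the membrane, was the least abundant of the 4 genes in each library. In lymph node it had 5 fragments and 1.16 FPKM (0.379 to 2.73) in the knockout, against 26 fragments and 6.36 FPKM (4.15 to 9.31) in wild type. In spleen it had 0 fragments in the knockout, where 3 fragments would be 0.612 FPKM, and 11 fragments and 2.62 FPKM (1.31 to 4.69) in wild type. In thymus it had 0 fragments in the knockout, where 3 fragments would be 0.682 FPKM, and 9 fragments and 2.10 FPKM (0.959 to 3.98) in wild type. LTA was thus below wild type in each tissue, on few fragments. It was 5.44-fold lower in the knockout lymph node (2.05 to 18.1), and against a floor of 3 fragments per library at least 4.28-fold lower in spleen and at least 3.07-fold lower in thymus. These floors hold the wild-type count fixed. The intervals that also cover its counting error reached down to 2.93-fold in spleen and 2.02-fold in thymus. The log2 ratios of -1.77, -1.86 and -1.63 passed the threshold in lymph node, spleen and thymus. With 5 FPKM added in place of 1 they were -0.88, -0.61 and -0.51, and no LTA call was left.

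LTB exceeded LTA by a wide margin per length. The LTB level was 95.8 times the LTA level in the knockout lymph node and 152 times in the wild-type lymph node. It was 125 times the LTA level in wild-type spleen and 137 times in wild-type thymus. No such ratio is given for the knockout spleen and thymus, where LTA was at 0.

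LTBR, the receptor for the membrane trimer, was higher in the knockout in every tissue. In lymph node it stood at 130.0 FPKM (121 to 140) in the knockout and 58.7 FPKM (52.3 to 65.3) in wild type. In spleen it stood at 172 FPKM (162 to 182) in the knockout and 100.5 FPKM (92.05 to 109) in wild type. In thymus it stood at 50.3 FPKM (44.7 to 56.4) in the knockout and 15.0 FPKM (11.98 to 18.5) in wild type. The genotypes' intervals were apart in all 3 tissues. LTBR was 2.22-fold higher in the knockout lymph node (1.95 to 2.54), 1.72-fold higher in spleen (1.55 to 1.90) and 3.36-fold higher in thymus (2.63 to 4.32). The log2 ratios were 1.13, 0.77 and 1.68, so lymph node and thymus passed the threshold and spleen did not. The differences between these folds were not tested. From high to low, LTBR ran from knockout spleen through knockout lymph node, wild-type spleen, wild-type lymph node and knockout thymus to wild-type thymus, and only the wild-type lymph node and the knockout thymus had overlapping intervals.

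TNFSF13B, which encodes BAFF, differed in direction between tissues. In lymph node it was lower in the knockout, at 22.6 FPKM (17.3 to 29.4) against 49.7 FPKM (41.1 to 59.3) in wild type. In spleen it was higher in the knockout, at 74.3 FPKM (65.0 to 85.1) against 23.6 FPKM (17.8 to 30.2) in wild type. In thymus it stood at 8.80 FPKM (5.58 to 13.2) in the knockout and 6.66 FPKM (3.88 to 10.7) in wild type, and the intervals overlapped. TNFSF13B was 2.18-fold lower in the knockout lymph node (1.58 to 3.04) and 3.18-fold higher in the knockout spleen (2.37 to 4.31). In thymus the ratio was 1.32 (0.675 to 2.63). The log2 ratios were -1.10, 1.61 and 0.36. The lymph node call was lost with 5 FPKM added, at -0.99. The knockout spleen had the highest level of all libraries, the wild-type lymph node the next, and the wild-type spleen and knockout lymph node overlapped in their intervals, as did the thymuses.

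**Figure D1:**
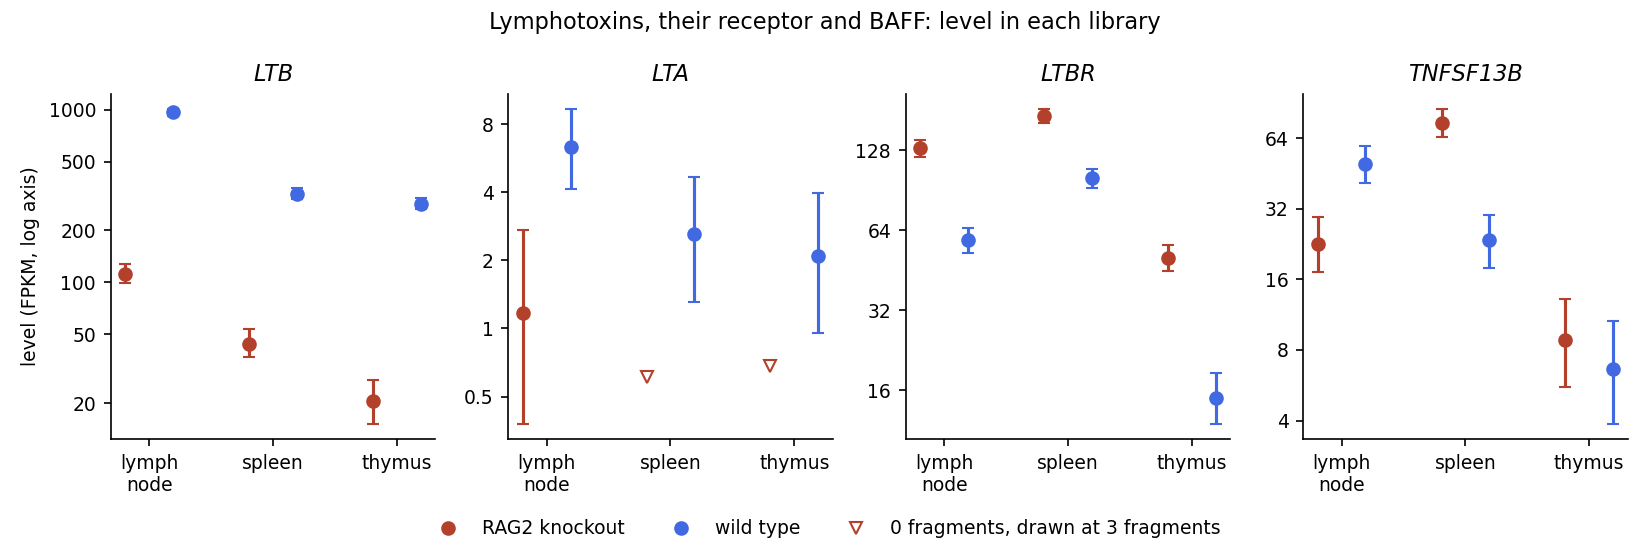
Level of each gene in the 6 libraries in FPKM on log axes, with 95% exact Poisson intervals of the fragment counts as bars, knockout in red to the left of wild type in blue. LTB falls between 20.6 and 112 FPKM in the knockout libraries and between 286 and 968 FPKM in the wild-type libraries, while LTBR is higher in the knockout of each tissue; open triangles mark 0 fragments, drawn at the level of 3 fragments.

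In lymph node 3 of the 4 genes were called lower and 1 higher, where 10.3% of all measured genes were called lower and 15.3% higher. In spleen 2 were called lower and 1 higher, where 10.0% were called lower and 8.88% higher. In thymus 2 were called lower and 1 higher, where 10.9% were called lower and 15.2% higher. All calls of the 4 genes also had a counting interval of the fold that excluded equal levels. With that interval required, 8.87% of genes were lower and 13.1% higher in lymph node, 8.42% and 7.51% in spleen, and 8.53% and 13.5% in thymus. These shares are also the background for the counts of called genes in every list below.

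The ratio of ligand to receptor within a library does not depend on how that library was scaled. In lymph node the LTB level was 0.858 times the LTBR level in the knockout and 16.5 times in wild type. In spleen it was 0.257 times in the knockout and 3.26 times in wild type. In thymus it was 0.410 times in the knockout and 19.1 times in wild type. LTB was thus above its receptor in each wild-type library and below it in each knockout library. In the knockout lymph node the counting intervals overlapped, at 99.0 to 127 FPKM for LTB and 121 to 140 FPKM for LTBR. As given above, LTB fragments cannot be told apart from those of LST1. The ratio was 19.2-fold lower in the knockout lymph node, 12.7-fold lower in spleen and 46.7-fold lower in thymus. On the log2 scale with 1 FPKM added to each level, the change of LTB over LTBR was -4.24, -3.63 and -5.42. That of LTA over LTBR was -2.90, -2.62 and -3.31, but its size depends on the added constant. With 5 FPKM added it was -1.97 in lymph node. In the knockout spleen and thymus LTA had 0 fragments, so no size is fixed there. Spleen had the lowest LTB to LTBR ratio of the tissues in both genotypes.

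**Figure D2:**
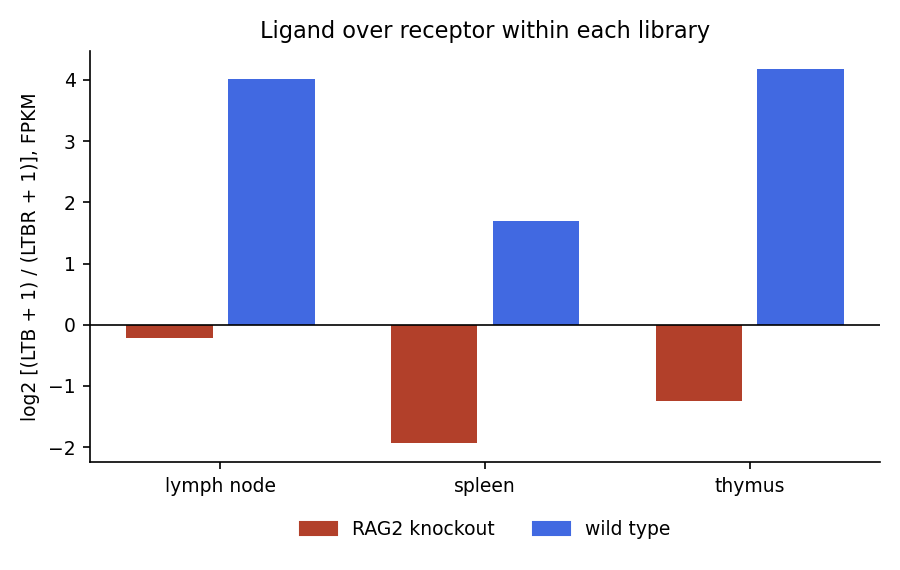
Log2 ratio of LTB over LTBR within each library, with 1 FPKM added to each level, knockout in red to the left of wild type in blue. The knockout bars stand at -0.22, -1.94 and -1.25 in lymph node, spleen and thymus, and the wild-type bars at 4.02, 1.69 and 4.17.

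Cells that can make lymphotoxin differed between the genotypes as well. In bulk tissue, fewer cells of a type and less RNA per cell cannot be told apart. In the knockout lymph node the B-cell list, 6 of 10 genes analysed, summed to 4.96 FPKM, against 1700 FPKM in wild type, 343-fold lower. The T-cell list, 9 of 12 genes analysed, summed to 225 FPKM in the knockout and 1827 FPKM in wild type, 8.11-fold lower. All 6 B-cell genes and all 9 T-cell genes were called lower there. The list of innate lymphoid and lymphoid tissue inducer genes summed to 328 FPKM in the knockout and 256 FPKM in wild type. Its members KIT, a growth factor receptor, and IL23RA, a cytokine receptor chain, were called higher (log2 ratios 1.17 and 2.46), and none was called lower. NCR1, a gene of this list and of the natural killer list, was listed at 0 in all libraries, so it shows nothing about a tissue. The natural killer list summed to 643 FPKM in the knockout and 170 FPKM in wild type. Single T-cell genes were spread widely around their sum. CD2 and CD247 gave 91.4 and 75.4 FPKM of the knockout sum and were 3.78-fold and 4.29-fold lower. CD3E and CD3G were 313-fold and 58.5-fold lower. LTB, at 8.60-fold lower, thus lay near the T-cell list as a sum and within the spread of its genes. It lay far from the summed B-cell list. CD3E lay near that B-cell sum, so the nearness of LTB to T-cell genes does not hold for each of them. The part of any cell type in the LTB value was not tested.

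In spleen the same lists were ordered differently around LTB. The B-cell list summed to 8.62 FPKM in the knockout and 573 FPKM in wild type, 66.5-fold lower, with all 6 genes called lower. The T-cell list summed to 407 FPKM in the knockout and 750 FPKM in wild type, 1.85-fold lower, with 4 of 9 genes called lower. Its genes were spread widely. CD3E was 71.4-fold lower, at 2.16 FPKM in the knockout and 155 FPKM in wild type, while CD3D stood at 92.9 and 83.7 FPKM. CD247 alone gave 131 FPKM of the knockout sum. LTB, 7.32-fold lower, lay between the summed B-cell and T-cell lists and within the spread of the T-cell genes. The innate lymphoid list summed to 287 FPKM in the knockout and 329 FPKM in wild type. Of its 5 measured genes 3 were called lower, among them the receptor for the lymphocyte growth factor IL-7, IL7R (log2 ratio -2.67). GATA3 was called on 4 fragments in the knockout and 14 in wild type, and ID2 was 1.58-fold higher. The list median of -1.26 was -0.52 with 5 FPKM added. The natural killer list summed to 1503 FPKM in the knockout and 337 FPKM in wild type, while LTB and LTA were lower in the same library.

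In thymus LTB was lower by more than the summed T-cell list, while the summed B-cell and natural killer lists were higher. The T-cell list summed to 4161 FPKM in the knockout and 8757 FPKM in wild type, 2.10-fold lower. CD3E and CD3G, chains of the T-cell receptor complex, had log2 ratios of -0.88 and -0.26, while the costimulatory receptor CD28 stood at -4.79 and CD5 at -2.45. Of the thymocyte list, 7 of 11 analysed, 2 were called higher and 4 lower, among them the coreceptors CD4 and CD8A (log2 ratios -4.33 and -5.43). The B-cell list summed to 186 FPKM in the knockout and 160 FPKM in wild type, of which CD79A gave 172 and 120 FPKM, and 4 of its 6 genes were called lower. A single B-cell gene was called lower with 5 FPKM added. Of 5 measured innate lymphoid genes IL7R was called higher in the knockout thymus, at 560 FPKM against 236 FPKM in wild type, while IL23RA and the transcription factor GATA3 were called lower (log2 ratios -1.83 and -1.09; list median -0.056). GATA3 was the lower call left with 5 FPKM added. The natural killer list summed to 208 FPKM in the knockout and 79.4 FPKM in wild type, with 4 of 5 measured genes called higher and none lower. The part of these cell types in the LTB value was not tested.

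The genes whose pattern over the 6 libraries was most like that of LTB were CD40LG, CD69 and CCR7. Likeness was the Euclidean distance between log2 levels, each gene centred on its own mean, among 2804 genes with 5 FPKM or more in a library, the 4 genes themselves always kept. CD40LG, the helper T-cell ligand of CD40, lay at a distance of 1.30, with log2 ratios of -3.14, -3.30 and -4.39 in lymph node, spleen and thymus. CD69, an early activation antigen of lymphocytes, lay at 1.41, with log2 ratios of -2.59, -1.32 and -3.50. CCR7, the receptor for CCL19 and CCL21, lay at 1.81. It had log2 ratios of -1.59, -1.13 and -4.43, and in thymus it stood at 1.71 FPKM in the knockout and 57.3 FPKM in wild type.

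LTBR had nearer neighbours. BMP6, a bone morphogenetic protein, lay at 0.567, KLRK1, an activating receptor of natural killer cells, at 0.665, and LOC780439 at 0.673. In the wild-type thymus BMP6 and LOC780439 stood at 0.223 and 0.590 FPKM. The 1 FPKM added to each level narrows differences at such levels, so these 2 distances rest in part on it. TNFSF13B lay nearest to B2M, the light chain of class I molecules, at 0.645, followed by LOC100624161 at 1.02 and CHRNA9, an acetylcholine receptor subunit, at 1.04. B2M had log2 ratios of -0.57, 1.38 and 0.30 in lymph node, spleen and thymus. Its listed level was low, from 3.06 FPKM in the wild-type thymus to 25.99 FPKM in the knockout spleen. Whether this entry holds all fragments of B2M was not tested, so its nearness to TNFSF13B shows nothing about class I molecules. LTA, on its few fragments, lay nearest to CHGA at 0.994, the heat-shock cochaperone DNAJB1 at 1.13 and the heparan sulfate cleaving enzyme HPSE at 1.14. With fragments scaled by TMM factors over the 6 libraries, the same 3 genes were named for LTA, LTB and LTBR, and CHRNA9 was the exception for TNFSF13B.

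Cell types that carry LTBR were compared with it by their marker lists. In lymph node the endothelial list, 6 of 9 genes analysed, summed to 2536 FPKM in the knockout and 1371 FPKM in wild type, 1.85-fold higher, beside 2.22-fold for LTBR. The fibroblast list summed to 6922 FPKM in the knockout and 4871 FPKM in wild type, 1.42-fold higher. The macrophage list summed to 3389 and 1708 FPKM in the same order, and its member CD163 was listed at 0 in all libraries. Fat-cell genes summed to 8754 FPKM in the knockout lymph node and 106 FPKM in the wild-type one, and the red-cell gene HBB stood at 6738 and 376 FPKM in the same order. Neutrophil genes, 4 of 8 analysed, summed to 527 FPKM in the knockout and 13.4 FPKM in wild type. The part of these in the LTBR value was not tested.

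In thymus all 6 endothelial genes were called higher in the knockout, and their sum was 260 FPKM against 98.5 FPKM in wild type, 2.64-fold higher, beside 3.36-fold for LTBR. The macrophage list summed to 703 FPKM in the knockout and 184 FPKM in wild type, 3.82-fold higher. Of the 6 fibroblast genes 2 were called higher and 1 lower there, with a median log2 ratio of -0.30. Their sum was nevertheless above wild type, at 2182 FPKM in the knockout and 1843 FPKM in wild type, of which the matrix proteoglycan DCN alone gave 1115 and 420 FPKM in the same order. Fat-cell genes summed to 1710 FPKM in the knockout thymus and 457 FPKM in the wild-type thymus, neutrophil genes to 2111 and 118 FPKM and HBB to 4782 and 912 FPKM in the same order. In spleen the fibroblast list was 1.83-fold lower, at 2752 FPKM in the knockout and 5044 FPKM in wild type, and 5 of its 6 genes were called lower. The endothelial list had a ratio of 1.21 in spleen and the macrophage list was 1.15-fold lower, while LTBR was 1.72-fold higher. AIF1 alone gave 1914 FPKM of the macrophage sum in the knockout spleen and 2058 FPKM in the wild-type spleen. Of the 7 measured macrophage genes 3 were called higher and 2 lower in spleen, so the sum does not show their spread. Fat-cell genes summed to 14.2 FPKM in the knockout spleen and 27.0 FPKM in the wild-type spleen, neutrophil genes to 1705 and 40.4 FPKM and HBB to 18970 and 41406 FPKM in the same order. The part of these cell types in the LTBR values was not tested.

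**Figure D3:**
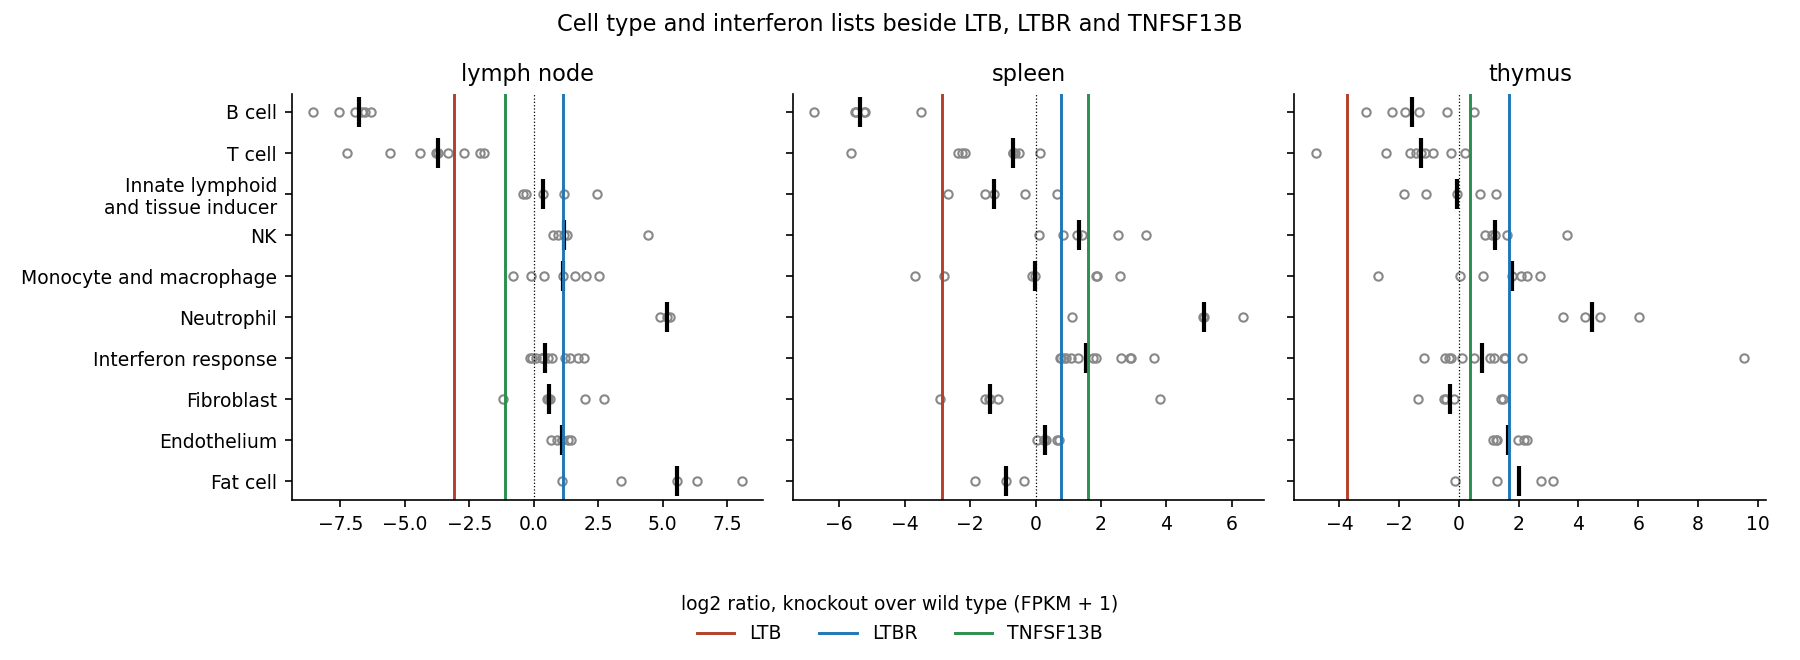
Log2 ratios of knockout over wild type for the measured genes of 10 marker lists (grey circles, with the list median as a black bar) in each tissue, beside LTB (red line), LTBR (blue line) and TNFSF13B (green line). In lymph node the LTB line at -3.10 lies near the T-cell median of -3.70, in thymus it lies at -3.73 below the T-cell median of -1.28, and in spleen the TNFSF13B line at 1.61 lies near the interferon-response median of 1.53.

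BAFF is made by myeloid cells and is known to be induced by interferons. In spleen 8 of 12 measured interferon-response genes were called higher and none lower (median log2 ratio 1.53). The chemokine CXCL10 stood at 659 FPKM in the knockout spleen and 107 FPKM in the wild-type spleen, 6.24-fold higher (5.54 to 7.06), and the antiviral gene OAS1 at 62.7 and 7.64 FPKM in the same order. In lymph node 4 of 12 were called higher and none lower (median 0.45), while TNFSF13B was lower. In thymus 6 were called higher and 1 lower (median 0.76), and TNFSF13B was not called. With genes at 0 fragments placed at their bound that median was 0.31, and 5 were higher once the counting interval was required, since BST2 had 2 fragments in the knockout and 0 in wild type. ISG15 and STAT2 were at 0 in all libraries. Among all measured genes 15.3%, 8.88% and 15.2% were called higher in lymph node, spleen and thymus, and 10.3%, 10.0% and 10.9% lower.

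Myeloid lists were set beside TNFSF13B in each tissue. The macrophage list had 4 of 7 measured genes called higher and none lower in lymph node, 3 higher and 2 lower in spleen, and 4 higher and 1 lower in thymus. Background shares of all measured genes were 15.3%, 8.88% and 15.2% higher in these tissues, and 10.3%, 10.0% and 10.9% lower. All measured neutrophil genes were called higher in each tissue, 3 in lymph node and 4 in spleen and thymus. Of 3 dendritic cell genes analysed, 0 were called higher and 1 lower in lymph node, 2 higher and 1 lower in spleen, and 1 higher and 2 lower in thymus. The spleen counts were 1 higher and 0 lower with 5 FPKM added. B cells, the cells that BAFF keeps alive, had the lowest list medians in lymph node and spleen, at -6.79 and -5.37 on the log2 scale, and -1.57 in thymus. The thymus value was -0.70 with 5 FPKM added. The part of interferon-response genes or of these cells in the TNFSF13B values was not tested, and the receptors TNFRSF13B, TNFRSF13C and TNFRSF17 were not analysed here.

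Other ligands of the tumour necrosis factor family were compared for their own directions, with 9 of 15 analysed. TNF, the neighbour of LTA and LTB and a ligand of the receptors that secreted lymphotoxin alpha also binds, was called in no tissue. It stood at 14.9 FPKM in the knockout and 13.6 FPKM in the wild-type lymph node, 13.4 and 27.1 FPKM in the spleens and 7.71 and 10.3 FPKM in the thymuses. Its fold in spleen was 2.02-fold lower (1.49 to 2.75) with a log2 ratio of -0.97. TNFSF10, the death ligand TRAIL, was called higher in lymph node and thymus (log2 ratios 1.16 and 1.22) and had a log2 ratio of 0.93 in spleen.

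CD40LG was called lower in each tissue. It was 11.2-fold lower in the knockout lymph node (4.85 to 31.5), and with 0 fragments in the knockout at least 6.23-fold lower in spleen and at least 12.6-fold lower in thymus against the floor (intervals down to 4.50-fold and 9.77-fold). In lymph node 1 ligand was called higher and 2 of 6 lower, in spleen 2 higher and 2 of 7 lower, and in thymus 1 higher and 2 of 7 lower. Of all measured genes 15.3%, 8.88% and 15.2% were called higher in these tissues, and 10.3%, 10.0% and 10.9% lower. With a counting interval that excludes equal levels, TNFSF10 in lymph node and thymus and CD40LG in each tissue were the calls left. The median log2 ratios were 0.33, -0.59 and -0.38, with medians of all measured genes of -0.0046, -0.016 and -4.7e-05. With genes at 0 fragments placed at their bound the thymus median was -0.035. The lymph node median was 0.13 with no expression minimum and 0.53 with a minimum of 5 FPKM, and the spleen median was -0.32 with 5 FPKM added. APRIL (TNFSF13), the relative of BAFF, and TNFSF12 were listed at 0 in all libraries.

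Of the receptors of this family 7 of 20 were analysed. Among them TNFRSF1B was listed at 0 in all libraries, so it shows nothing about a tissue. TNFRSF1A, a receptor for TNF and secreted lymphotoxin alpha, was not called but was above wild type in each tissue. It stood at 210 FPKM in the knockout and 137 FPKM in the wild-type lymph node, 285 and 173 FPKM in the spleens and 113 and 65.5 FPKM in the thymuses, with log2 ratios of 0.61, 0.71 and 0.77. CD27, a costimulatory receptor of lymphocytes, was called lower in each tissue, at log2 ratios of -3.72, -1.16 and -3.34. CD40, the receptor that B cells and antigen-presenting cells carry for CD40LG, was called lower in lymph node (-1.54) and stood at -0.03 in spleen and -0.80 in thymus. In all, 1 receptor was called higher and 3 of 6 lower in lymph node, 0 and 1 of 6 in spleen, and 0 and 2 of 5 in thymus. All measured genes had shares of 15.3%, 8.88% and 15.2% called higher in these tissues, and 10.3%, 10.0% and 10.9% lower. With 5 FPKM added, no receptor was called higher in lymph node or lower in spleen, so the calls of TNFRSF12A in lymph node and CD27 in spleen were lost. The medians were -1.02, 0.27 and -0.80. The lymph node median was -0.76 with 5 FPKM added, and the thymus median was -0.30 with no expression minimum.

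Of the NF-kappaB signalling genes, 9 of 24 were analysed, and MAP3K14, NFKB2 and RELB, which belong to the branch that LTBR and the BAFF receptor use, were not analysed here. None of the 9 was called in lymph node or spleen. In thymus 2 were called lower, the subunit gene NFKB1 (10.8 FPKM in the knockout, 23.7 FPKM in wild type) and NFKBIA, an inhibitor that NF-kappaB itself induces (332 FPKM in the knockout, 705 FPKM in wild type). NFKBIA was 2.12-fold lower there (1.95 to 2.32), and NFKB1 2.202-fold lower (1.27 to 3.95). NFKBIA was the call left with 5 FPKM added. CHUK, the kinase that both branches can use, had log2 ratios of -0.32, -0.08 and -0.30. The list medians were -0.23, 0.031 and -0.30.

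Genes that lymphotoxin is known to induce or maintain in mouse stroma, endothelium and thymic medulla were compared in the pig tissues, with 14 of 24 analysed. CXCL13, GLYCAM1, CHST4, TNFSF11, PDPN and CR2 were among those not analysed here. MADCAM1 was listed at 0 in all libraries, so the counts below cover only a part of the response. In lymph node 0 of 13 measured were called higher and 3 lower, in spleen 3 higher and 4 lower, and in thymus 2 higher and 4 lower. Shares called higher among all measured genes were 15.3%, 8.88% and 15.2% in lymph node, spleen and thymus. Those called lower were 10.3%, 10.0% and 10.9%. The higher calls in spleen were CCL19, CXCL10 and CCL20. CXCL10 is also held by the interferon-response list, and CCL20 had 1 fragment in the knockout and 0 in wild type. With the counting interval required, 2 genes of the list were higher in spleen and 1 in thymus. The medians were -0.36, -0.50 and -0.084. The spleen median was -0.19 with 5 FPKM added, and in thymus genes reaching 5 FPKM had a median of 0.15, opposite in sign.

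In lymph node no chemokine of this list was called. LTB was 8.60-fold lower there. CCL19, a CCR7 ligand of the T-cell zone, stood at 2589 FPKM in the knockout and 2163 FPKM in wild type. CCL21, the other CCR7 ligand, stood at 1754 FPKM in the knockout and 2438 FPKM in wild type. CXCL12 stood at 1774 and 2320 FPKM, and the adhesion molecule VCAM1 at 1024 and 1313 FPKM, in the same order. None of the 4 passed the threshold, but all had intervals that excluded equal levels. CCL19 was 1.25-fold higher (1.14 to 1.38). CCL21 was 1.36-fold lower (1.27 to 1.46), CXCL12 1.28-fold lower (1.19 to 1.37) and VCAM1 1.28-fold lower (1.24 to 1.32). The genes called lower in lymph node were CLU (2.05-fold, 1.98 to 2.12) and MFGE8 (2.08-fold, 1.91 to 2.28), products of follicular dendritic cells among others, and FCER2, a low-affinity IgE receptor that the B-cell list also holds. FCER2 had 1 fragment in the knockout and 237 in wild type, a ratio 248-fold lower with an interval of 44.0 to 9826.

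In spleen the chemokines went in different directions. CCL19 stood at 2097 FPKM in the knockout and 109 FPKM in wild type, 20.6-fold higher (15.0 to 29.0). CCL21 stood at 126 FPKM in the knockout and 336 FPKM in wild type, 2.56-fold lower (2.05 to 3.21). CXCL12 was 1.999-fold lower (1.85 to 2.16) and IL7 6.07-fold lower (3.47 to 11.4). VCAM1 stood at 4635 FPKM in the knockout and 4399 FPKM in wild type and was not called. In the same library 5 of the 6 fibroblast genes were called lower, and TIMP1, an inhibitor of matrix proteases, was 14.4-fold higher (11.8 to 17.8). The part of stromal cells in these values was not tested.

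In thymus CCL19 was 7.24-fold lower (4.20 to 13.4), at 39.1 FPKM in the knockout and 283 FPKM in wild type. The chemokine CCL20 had 0 fragments in the knockout and 20 in wild type, at least 6.83-fold lower against the floor, with an interval down to 5.06-fold. CLU was 2.36-fold lower (2.04 to 2.73). ICAM-1, an adhesion molecule of endothelium and leukocytes, was 2.48-fold higher (1.996 to 3.10), at 41.7 FPKM in the knockout and 16.8 FPKM in wild type, beside 6 endothelial genes of which all were called higher. CCL21 just passed the threshold on 9 fragments in the knockout and 4 in wild type, with an interval of the fold from 0.613 to 9.76. AIRE and FEZF2, regulators of the medullary epithelium, were not analysed here.

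**Figure D4:**
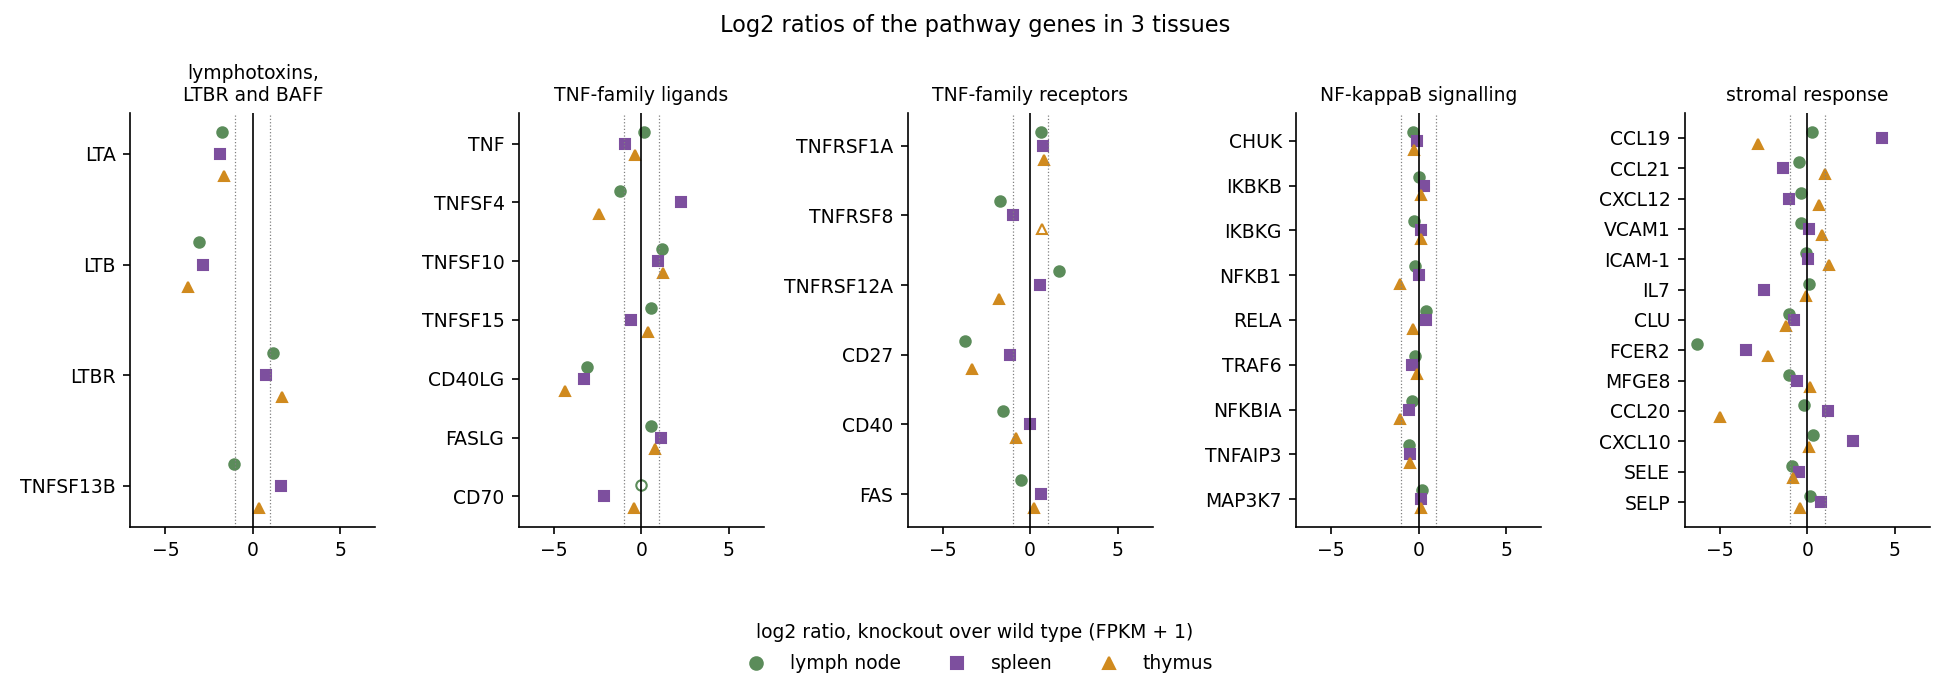
Log2 ratios of knockout over wild type in lymph node (green circles), spleen (purple squares) and thymus (orange triangles) for the 4 genes and the analysed members of the ligand, receptor, NF-kappaB and stromal response lists; dotted lines mark the threshold of 1, and open symbols mark genes under 1 FPKM in both libraries of a tissue. LTA and LTB lie left of the threshold in each tissue, TNFSF13B lies on opposite sides in lymph node and spleen, and CCL19 lies at 4.26 in spleen and -2.82 in thymus.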

How the data were processed

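RNA was isolated with RNeasy columns and made into TruSeq stranded total RNA libraries, per the labels' protocols. The submitters' processing notes name FastQC 0.11.9, Trimmomatic 0.39, STAR 2.7.9a, Cufflinks 2.2.1 and the build Sscrofa11.1, without order or settings. The authors deposited FPKM values and estimated counts, 1 table of each per tissue. The deposited estimated counts were read from their values as fragments times 1 factor per library (0.925 to 1.08). After division by it, 97.5 to 99.2% were whole within 0.02, and all were rounded. The totals cover listed genes and are not the depth of the libraries.

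A gene counted as measured in a tissue where either genotype reached 1 FPKM. No fit across tissues was made. The 4 genes, the 18 marker and pathway lists and the rules were chosen with earlier results of these data known. Any list member may be named, those with the largest log2 ratio of each list first. Some list members stand under older names (RAG-1, ICAM-1, IL23RA, APRIL). Coordinates are those of RefSeq for Sscrofa11.1, counted from 1. Intervals were tested on simulated counts that held counting error only, so that test says nothing about variation between animals or libraries.

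Alternatives were counts scaled to their total, edgeR 4.0.16 TMM factors, DESeq2 1.42.0 size factors, pseudocounts of 0.1 and 5 FPKM, median centring, other expression minima and the counting interval. Python 3.11.15 with scipy 1.17.1 was used.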

Additional observations from a re-analysis of the deposited data

Results flagged for a closer look

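TNFSF13B was called in opposite directions in lymph node and spleen. Its log2 ratio of knockout over wild type was 1.61 in spleen and -1.10 in lymph node, 2.71 apart. TNFRSF12A, the receptor of TNFSF12, was called lower in thymus (-1.78) and higher in lymph node (1.68), a difference of -3.46, on 4 and 17 fragments in the knockout and wild-type thymus and 10 and 2 in the lymph nodes. With 5 FPKM added, the lymph node call of TNFRSF12A was lost. CCL19 was called lower in thymus (-2.82) and higher in spleen (4.26), a difference of -7.08. These differences between tissues were not tested, since each tissue and genotype holds 1 library.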

How the results depend on the processing

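No paired analysis was possible because each tissue and genotype holds 1 library and the labels pair none. LTB kept its call in each tissue, and LTBR its call in lymph node and thymus, under all 6 alternatives to the FPKM ratio. With 5 FPKM added, the log2 ratios of LTA were -0.88, -0.61 and -0.51 in lymph node, spleen and thymus and that of TNFSF13B in lymph node was -0.99, all under the threshold. The change of LTB over LTBR in thymus was then -4.98. Over all genes, 166 were then higher and 160 lower in spleen, and 272 and 183 in thymus, against 253 and 286 and 441 and 317 with 1 FPKM added. Lower folds follow from the larger constant. Counts scaled to their total moved the median of all genes in thymus by 0.11, with LTB at -3.62 and LTBR at 1.80. From fragment counts alone, no change of LTA over LTBR could be given in spleen and thymus, where LTA had 0 fragments in the knockout. The order of the levels across the 6 libraries was the same for LTA, LTB, LTBR and TNFSF13B with TMM factors over all libraries, an alternative chosen after seeing the data. Depth limits LTA, with 26 fragments at most, and TNFSF13B in thymus.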
